A study of Mus musculus with 12 samples.

Results

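Chemokines are small secreted proteins that guide the movement of leukocytes, and each acts through one or more receptors of the G protein-coupled class. The genes described here are the rows of a mouse brain count table whose symbols name a chemokine (Ccl, Cxcl, Xcl, Cx3cl), a conventional receptor (Ccr, Cxcr, Xcr, Cx3cr) or an atypical receptor (Ackr). The name pattern picked 61 of the 25124 genes in the table. Of these, 52 had at least 20 counts summed over the 12 libraries and are described: 31 ligands, 17 conventional receptors and 4 atypical receptors. Of the 52, 49 passed the filter on low counts and could be tested; Cxcl17, Ccr3 and Ccr4 did not. The other 9 were under 20 counts: Ccr8, Cxcl3, Cxcl15, Ccl26, Ccl1 and Ccl20, and the near-identical copies Ccl21a, Ccl21b and Ccl21c, which had 0 counts in every library.

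A chemokine binds proteoglycans on vessel walls and matrix, and cells that carry the matching receptor move along the bound gradient through Gi proteins, PI3-kinase gamma and Rac. Inflammatory chemokines are switched on in damaged tissue by NF-kB and interferon signalling, whereas homeostatic ones position lymphocytes in lymphoid organs or keep stem cells and microglia in place. In the healthy brain, neurons make the membrane-tethered chemokine fractalkine (Cx3cl1), whose receptor Cx3cr1 is carried by microglia; atypical receptors bind chemokines without G protein signalling and remove or transport them.

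The series examined what induced dickkopf-1 (DKK1), a secreted Wnt antagonist, does after ischemic stroke. Wild-type mice (C57BL6/J) were set against DKK1 mice, which carried Gt(ROSA)26Sortm1.1(rtTA,EGFP)Nagy, Hprttm1(tetO-Dkk1)Spdl and Tg(TCF/Lef1-lacZ)34Efu/J. These alleles are a doxycycline-dependent activator with EGFP at the ROSA26 locus, a tetO-driven Dkk1 at Hprt and a Wnt reporter. Both genotypes had occlusion of the middle cerebral artery (MCAo) and doxycycline at 200 mg/kg, with induction from day 3 and tissue taken on day 28. The ipsilateral hemisphere is called lesioned and the contralateral hemisphere intact, which gave 4 groups of 3 RNA libraries; age and sex are not in the labels. No group carried the alleles without doxycycline, so the Dkk1 transgene, the reporter and any strain difference between the mice cannot be told apart. Nothing in the labels ties a library to an animal of its own, so each p-value measures only the spread between these libraries, which may be technical. All mice had doxycycline, and its own effect cannot be told apart. The labels name no cell type for the activator.

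Libraries held 21209920 to 26911840 counts. Dkk1 had 0 counts in the 6 wild-type libraries, 4 to 13 in the intact and 7 to 44 in the lesioned libraries of DKK1 mice. The main axis of variation, 73.8% of the variance, separated lesioned from intact libraries. Wild-type lesioned 1 stood farther out on it (70.9) than wild-type lesioned 2 and 3 (29.2 and 37.1), and wild-type intact 1 (-41.2) stood nearer the lesioned libraries than wild-type intact 2 and 3 (-72.6 and -63.3). Neuronal markers were high in every group, as in brain tissue: summed over 7 genes they were 3988 to 4432 CPM (counts scaled to library size with TMM) in the intact and 2809 to 3477 in the lesioned libraries. Whole tissue was sequenced, so fewer cells of a type and less RNA per cell cannot be told apart.

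Most of the family stood far higher in the lesioned than in the intact hemisphere 28 days after MCAo, in both genotypes. In wild-type mice 35 of the 49 tested members rose and 5 fell, against a background in which 37.2% of all 17612 genes tested passed in either direction, 21.2% upward and 15.9% downward. In DKK1 mice 37 rose and 5 fell, against 50.1% of all genes, 27.5% upward and 22.6% downward. The median log2 fold change of the members was 3.54 in wild-type and 3.80 in DKK1 mice (3.59 with members at 0 counts held at their bound), and that of all genes was 0.01 in both. All p-values of a gene are from edgeR's quasi-likelihood test with Benjamini-Hochberg adjustment over all genes tested, unless another tool is named, and the threshold was 0.05.

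The 40 members that passed in wild-type mice also passed in DKK1 mice, in the same direction. Cxcl11 and Cxcl12 passed in DKK1 mice alone; that these 2 differ between genotypes in their lesion response was not shown, since the tests of that difference gave adjusted p = 0.915 and 0.736. In wild-type mice Cxcl11 had 1 count over the intact and 13 over the lesioned group (adjusted p = 0.0677), and it passed with the replicate number as a block (0.0354) and in DESeq2 (0.0418). Among conventional receptors, 15 of the 15 tested rose in each genotype. Among ligands, 20 of 30 rose in wild-type and 22 of 30 in DKK1 mice, and Cx3cl1, Cxcl14 and Ccl27a fell in both. Of the 4 atypical receptors none rose, and Ackr1 and Ackr2 fell. Ackr3, Ackr4, Ccl17, Ccl24, Ccl25, Ccl27b and Ccl28 passed in neither genotype.

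**Figure D1:**
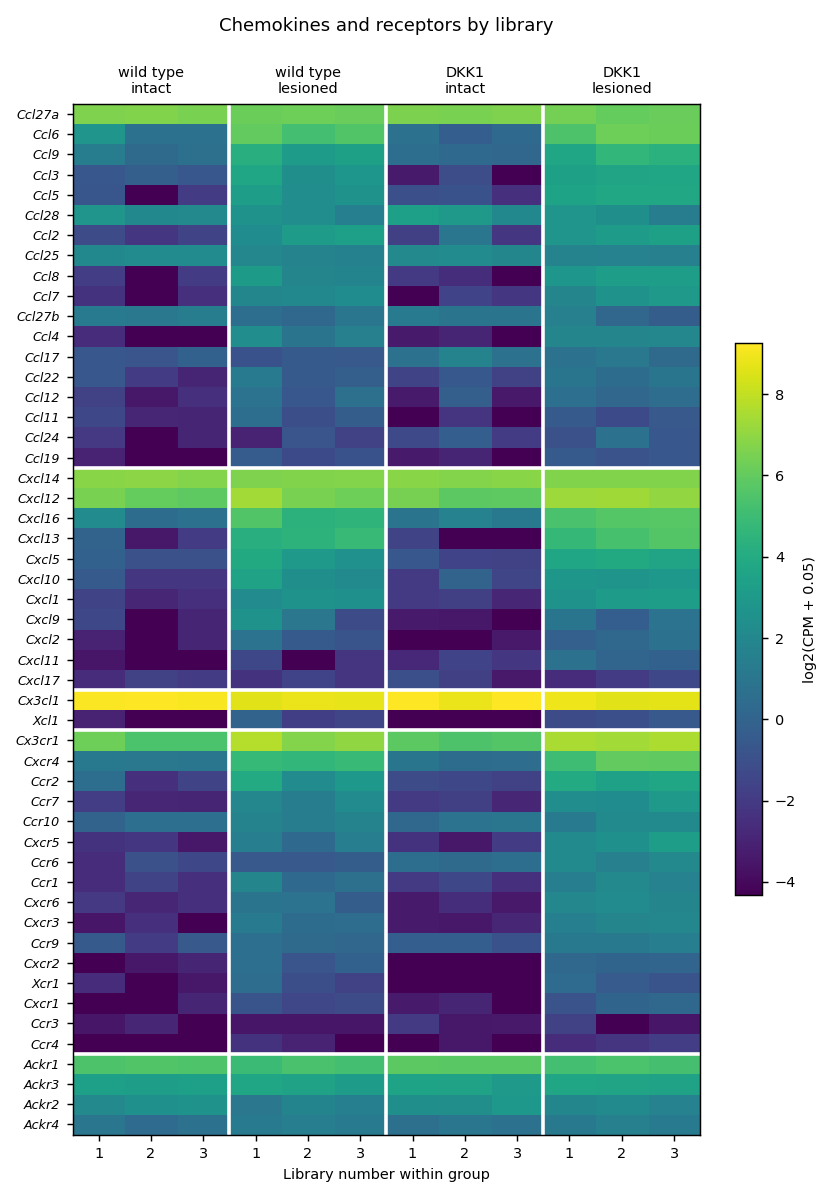
Level of 51 of the 52 described genes (rows) in each of the 12 libraries (columns), as log2(CPM + 0.05), with white lines between groups and between CC ligands, CXC ligands, other ligands, conventional receptors and atypical receptors. Most rows are dark in the 6 intact and bright in the 6 lesioned libraries, whereas Cx3cl1, Cxcl14, Ccl27a and Ackr1 are bright in all 12.

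Markers of other cell types changed between the hemispheres as well. All 6 B cell markers listed rose in both genotypes, and their summed level went from 0.436 to 1.76 CPM in the intact to 32.7 to 129 CPM in the lesioned libraries. Of the 10 markers of border macrophages and monocytes (Ccr2 is one of them), 8 rose in each genotype, from a summed 12.6 to 17.7 CPM to 50.4 to 131 CPM. Of 10 T and NK cell markers tested, 9 rose and 1, Cd4, fell; Cd4 made up most of the summed level in intact tissue (41.4 ± 9.7 CPM of 32.9 to 51.6 in wild-type mice). Of 8 neutrophil markers 4 could be tested and rose, but Ly6g, which defines the lineage, was at 0 in 3 of the 4 groups and at 0 to 2 counts in DKK1 lesioned libraries. Of 8 microglial markers, 6 rose in wild-type and 7 in DKK1 mice, with median log2 fold changes of 1.0 and 1.53. All 6 fibroblast and meningeal markers rose in both genotypes (medians 2.82 and 3.78), from a summed 92.9 to 170 CPM to 401 to 927 CPM. Choroid plexus markers rose in 6 of 6 in wild-type (median 1.99) and 1 of 6 in DKK1 mice (median 1.17), and astrocyte markers in 4 and 5 of 7. The part of these cells in the chemokine changes was not tested.

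Per length, fractalkine (Cx3cl1) was the most abundant member in every group, at 184 ± 9.8 CPM per kb in wild-type intact and 136 ± 14 in DKK1 lesioned tissue (SD, n = 3). It stood at 574, 609 and 548 CPM in wild-type intact and 392, 464 and 425 CPM in wild-type lesioned libraries. The DKK1 libraries held 605, 454 and 604 CPM in intact and 475, 394 and 407 CPM in lesioned libraries. The wild-type groups did not overlap, while in DKK1 mice the second intact library lay below the first lesioned one. Cx3cl1 fell by 0.43 (SE 0.11, adjusted p = 0.0114) on the log2 scale in wild-type and by 0.38 (SE 0.11, adjusted p = 0.0146) in DKK1 mice. The call in DKK1 mice was lost without DKK1 lesioned 2 (adjusted p = 0.0598) or 3 (0.0538), and that in wild-type mice without both wild-type number 1 libraries (0.0734).

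Its receptor Cx3cr1 went the other way. The wild-type libraries held 75.6, 42.4 and 41.7 CPM when intact and 212, 107 and 127 CPM when lesioned. Those of DKK1 mice held 56.7, 43.5 and 49.2 CPM and then 187, 166 and 194 CPM. Lesioned and intact libraries did not overlap, and wild-type number 1 was highest of its group on both sides. Cx3cr1 rose by 1.48 (SE 0.27, adjusted p = 0.00187) in wild-type and 1.87 (SE 0.27, adjusted p = 0.000228) in DKK1 mice on the log2 scale. Ligand and receptor changed in opposite directions and so came closer in level: per length Cx3cr1 went from 14.2 ± 5.2 to 39.7 ± 15 CPM per kb in wild-type mice, still below its ligand.

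Cxcl12, the retention signal for stem cells and lymphocytes that acts through Cxcr4 and is removed by Ackr3, stood at 91.9, 65.9 and 58.2 CPM in wild-type intact and 164, 92.5 and 76.7 CPM in wild-type lesioned libraries. The DKK1 values were 87.6, 57.9 and 59.9 CPM when intact and 153, 156 and 131 CPM when lesioned. The wild-type groups overlapped through the high number 1 libraries and the DKK1 groups did not. Cxcl12 rose in DKK1 mice (log2 fold change 1.10, SE 0.27, adjusted p = 0.0059), and the value in wild-type mice was 0.63 (SE 0.27, adjusted p = 0.0918). With the replicate number as a block, the wild-type value was 0.58 and passed (adjusted p = 0.00517).

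The size of the Cxcl12 change differed between the transcripts of the deposited tables. The count table holds a long transcript (mm10, chromosome 6, 117168535 to 117181368, 5664 bases), and the deposited TPM table holds a shorter one (117168535 to 117175069, 1873 bases) that shares its start and ends earlier. In TPM, the authors' length-scaled unit, the shorter transcript stood at 22.4, 11.4 and 13.02 in wild-type intact and 98.5, 45.5 and 38.6 in wild-type lesioned libraries. It stood at 14.6, 12.5 and 11.3 TPM in DKK1 intact and 102, 116 and 116 TPM in DKK1 lesioned libraries. Neither genotype's groups overlapped. With limma on log2(TPM + 0.5) the lesion difference was 1.86 (SE 0.31, adjusted p = 0.0012) in wild-type and 3.08 (SE 0.31, adjusted p = 1.89e-05) in DKK1 mice, against 0.63 and 1.10 from the counts of the longer transcript. Of the 52 described genes, 8 had another transcript in the TPM table: Cxcl12, Cxcl16, Ccl24, Ccl27a, Cxcr4, Ccr6, Ackr2 and Ackr3.

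Cxcr4, the signalling receptor of Cxcl12, was low in intact tissue, and in both lesioned groups it was second only to Cx3cr1 among conventional receptors per length (15.2 ± 1.1 and 28.9 ± 9.4 CPM per kb). Wild-type libraries held 2.18, 2.10 and 1.98 CPM when intact and 27.7, 25.4 and 29.2 CPM when lesioned, a narrow spread on both sides. DKK1 libraries held 1.91, 1.35 and 1.40 CPM when intact and 32.8, 63.0 and 61.4 CPM when lesioned. No intact library came near a lesioned one. Cxcr4 had the smallest p of any receptor in both genotypes: log2 fold change 3.71 (SE 0.25, adjusted p = 1.36e-05) and 5.08 (SE 0.26, adjusted p = 7.77e-07). Ackr3, the scavenging receptor of Cxcl12, lay between 8.15 and 12.96 CPM in all 12 libraries and did not pass (0.15 and 0.21, adjusted p = 0.49 and 0.295).

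Cxcl14, a ligand that neurons and epithelia make, stood at 115, 117 and 106 CPM in wild-type intact and 98.1, 103 and 106 CPM in wild-type lesioned libraries. The change was small, -0.14 (SE 0.05, adjusted p = 0.0477) in wild-type and -0.16 (SE 0.05, adjusted p = 0.0179) in DKK1 mice, and the wild-type call was lost under 3 other settings and without any of 5 single wild-type libraries. Ccl27a, a skin-homing ligand, fell by 0.41 (SE 0.09, adjusted p = 0.00393) and by 0.35 (SE 0.09, adjusted p = 0.00563). Its value is uncertain, since 59.9% of its 50-base windows also occur in near-identical genes such as Ccl27b. The 7 neuronal markers also all fell in both genotypes (medians -0.34 and -0.46), and their part in these changes was not tested.

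**Figure D2:**
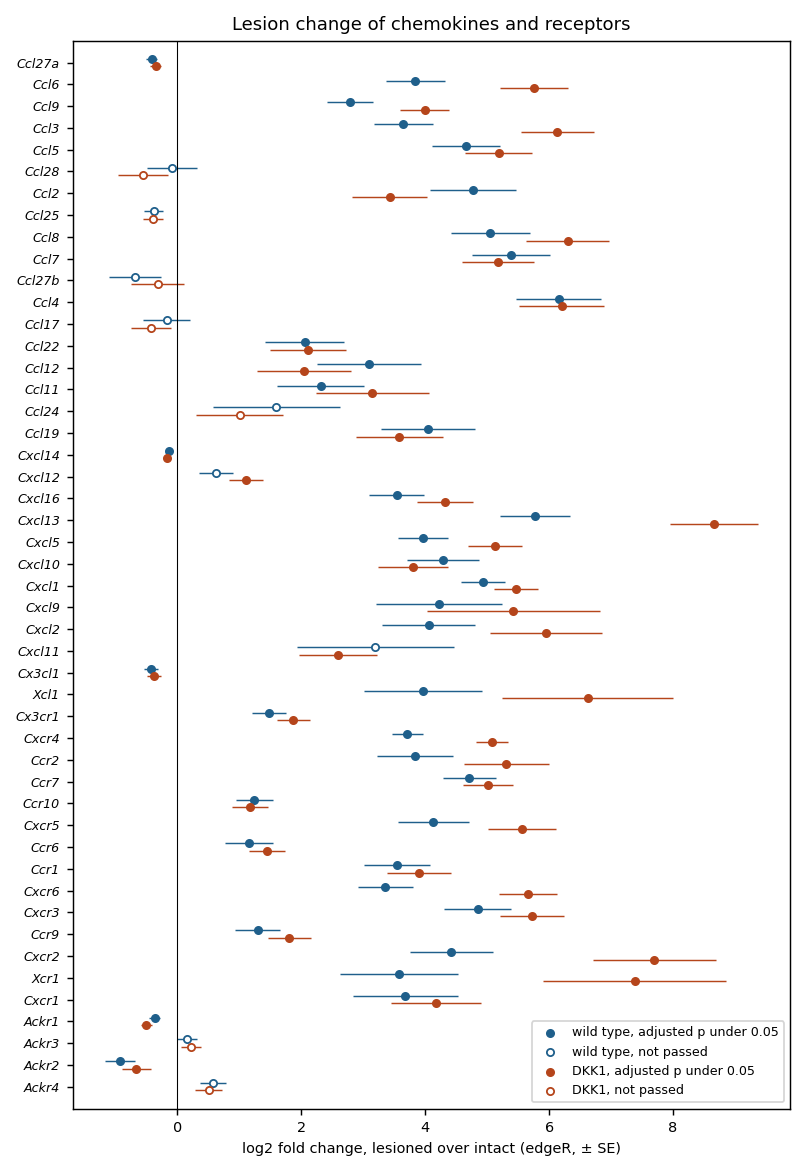
Log2 fold change of 48 of the 49 tested genes, lesioned over intact hemisphere, with SE from edgeR; blue points are wild-type and orange-red points DKK1 mice, filled where the adjusted p was under 0.05. All 14 conventional receptors drawn lie right of 0 in both genotypes, and the few genes left of 0 stay within 1 unit of it.

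Ccl2, Ccl7 and Ccl12 are ligands of Ccr2, the receptor by which monocytes leave the marrow. They and Ccl8 all rose in both genotypes. The 4 genes lie beside each other, with Ccl11 and Ccl1, in 144.2 kb of chromosome 11. Ccl2 stood at 0.375, 0.171 and 0.296 CPM in wild-type intact and 4.82, 8.72 and 10.2 CPM in wild-type lesioned libraries. DKK1 libraries held 0.245, 1.93 and 0.174 CPM when intact and 6.77, 9.12 and 10.3 CPM when lesioned. The second DKK1 intact library was high for its group. Ccl2 rose by 4.77 (SE 0.69) in wild-type and 3.43 (SE 0.60) in DKK1 mice. Ccl7 rose by 5.38 (SE 0.63, adjusted p = 0.00011) and 5.17 (SE 0.58), and Ccl8, a ligand seen in perivascular macrophages, by 5.05 and 6.30. Ccl12 rose least, by 3.10 and 2.05, and in DKK1 mice its call was lost without any of 5 of the 6 libraries (adjusted p 0.0607 to 0.129). Its wild-type call was lost without wild-type intact 2 (2.69, adjusted p = 0.0554).

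The second DKK1 intact library was also high in Ccl12 (20 counts against 1 and 1), Cxcl10 (23 against 4 and 7) and Ccl17 (81 against 33 and 39). It was not high in Ccr2, the receptor of the first, which had 8, 8 and 6 counts in the DKK1 intact libraries. Ccr2 stood at 1.43, 0.128 and 0.296 CPM in wild-type intact and 15.4, 4.60 and 7.57 CPM in wild-type lesioned libraries, and at 15.9, 10.7 and 12.6 CPM in DKK1 lesioned libraries. It rose by 3.84 (SE 0.61) and 5.30 (SE 0.69); wild-type number 1 was highest on both sides.

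Ccl3, Ccl4 and Ccl5, inflammatory CC ligands that activated microglia, macrophages and T cells make, rose in both genotypes. Ccl3 had 16, 19 and 14 counts in wild-type intact and 343, 134 and 184 in wild-type lesioned libraries. The DKK1 libraries had 1, 10 and 0 counts when intact, below every wild-type intact library, and 263, 291 and 340 when lesioned. Its log2 fold change was 3.64 (SE 0.47) in wild-type and 6.13 (SE 0.59, adjusted p = 1.12e-05) in DKK1 mice. Ccl4 had 3 counts over the wild-type intact group and 132, 46 and 77 in the lesioned libraries, a ratio of 80.1 (exact 95% counting interval 27.1 to 391), and in DKK1 mice from 3 to 278 counts, a ratio of 81.9 (27.7 to 400). Such intervals cover counting error only. Ccl5, the T cell and NK cell ligand, stood at 9.61, 4.99 and 6.09 CPM in wild-type and 11.7, 13.8 and 13.8 CPM in DKK1 lesioned libraries. It rose by 4.66 (SE 0.56, adjusted p = 0.000131) and 5.19 (SE 0.54).

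Ccl6 and Ccl9 are mouse ligands of Ccr1 made by microglia and macrophages, and both rose with it. Ccl6 stood at 6.83, 1.62 and 1.65 CPM in wild-type intact and 64.1, 37.1 and 46.9 CPM in wild-type lesioned libraries. The level in DKK1 mice was 1.67, 0.779 and 1.18 CPM when intact and 44.0, 76.2 and 72.6 CPM when lesioned. It rose by 3.84 (SE 0.47) and 5.75 (SE 0.55, adjusted p = 1.22e-05). Per length Ccl6 was the most abundant CC ligand in both lesioned groups, at 34.5 ± 9.6 and 45.0 ± 12 CPM per kb. Ccl9 rose by 2.79 (SE 0.37) and 3.99 (SE 0.39, adjusted p = 1.34e-05). Ccr1 rose by 3.54 (SE 0.53) and 3.90 (SE 0.51), from 0.113 to 0.328 CPM in intact to 1.19 to 4.13 CPM in lesioned libraries.

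Cxcl1, Cxcl2 and Cxcl5 act through Cxcr2, which neutrophils carry and which oligodendrocyte precursors are also known to carry. Cxcl1 had the smallest p of the ligands that rose, in both genotypes. It stood at 0.300, 0.0855 and 0.127 CPM in wild-type intact and 4.71, 6.14 and 5.63 CPM in wild-type lesioned libraries. DKK1 libraries held 0.196, 0.246 and 0.0872 CPM when intact and 6.26, 8.62 and 9.24 CPM when lesioned. Lesioned libraries were close to each other within a genotype, and those of DKK1 mice all lay above those of wild-type mice. Cxcl1 rose by 4.93 (SE 0.35, adjusted p = 1.47e-05) and 5.47 (SE 0.35, adjusted p = 1.44e-06).

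Cxcl5 stood at 15.0, 7.89 and 5.75 CPM in wild-type and 12.4, 15.2 and 11.9 CPM in DKK1 lesioned libraries, and rose by 3.97 (SE 0.40, adjusted p = 5.14e-05) and 5.13 (SE 0.44, adjusted p = 4.96e-06). Cxcl2 rose by 4.05 (SE 0.74) in wild-type mice. In DKK1 mice it went from 1 count to 94 over the group, a ratio of 83.1 (14.6 to 3317). Cxcr2 had 0 counts in the 3 DKK1 intact libraries and 28, 24 and 28 in the lesioned ones, at least 23.6-fold higher against a floor of 3 counts over the group. In wild-type mice Cxcr2 went from 3 to 77 counts, a ratio of 24.2 (7.97 to 120), and Cxcr1 from 2 to 32, a ratio of 15.1 (3.85 to 130). Of the 8 neutrophil markers, the 4 that could be tested all rose in both genotypes (medians 2.97 and 3.05), and Ly6g, Elane, Mpo and Retnlg were too low to test; their part in the ligand changes was not tested.

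The stretch just before the start site of 4 of these ligands is shown because the letters bear on how the genes are commonly grouped. Promoter sequences of 38 of the 52 described genes were found in RefSeq (GRCm38.p6, the same coordinates as mm10), each as the 250 bases before the RefSeq start. That start lay 153 bases from the counted one for Ccl19 and 497118 bases from it for Ccl27b, so their windows do not end at the counted start. No sequence was found or searched for Ccl2, Ccl4, Ccl5, Ccl7, Ccl11, Ccl24, Cxcl5, Cxcl11, Cxcl16, Cxcl17, Ccr7, Ccr10 and Cxcr5, among others. The 38 sequences were searched on both strands for an NF-kB motif (GGG, any 2 bases, then TTTCC), an interferon response motif (ISRE; GAAA, any 2 bases, then GAAA) and a STAT motif (GAS; TTC, any 3 bases, then GAA), with overlapping matches allowed. The sequences are written in the direction of the gene, 5′ to 3′, with the matches in capitals.
Cxcl1, chr5:90890995-90891244, plus strand: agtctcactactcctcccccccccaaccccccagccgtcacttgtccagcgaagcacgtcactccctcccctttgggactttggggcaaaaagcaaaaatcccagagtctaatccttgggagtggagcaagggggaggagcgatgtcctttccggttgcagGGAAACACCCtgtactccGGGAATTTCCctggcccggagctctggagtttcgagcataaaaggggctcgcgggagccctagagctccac
Cxcl2, chr5:90903649-90903898, plus strand: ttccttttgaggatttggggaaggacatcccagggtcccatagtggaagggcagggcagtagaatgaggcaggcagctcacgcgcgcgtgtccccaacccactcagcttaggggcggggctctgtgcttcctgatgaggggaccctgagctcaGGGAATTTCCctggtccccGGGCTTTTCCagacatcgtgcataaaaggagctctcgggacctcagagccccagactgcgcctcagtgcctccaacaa
Ccl9, chr11:83578637-83578886, minus strand: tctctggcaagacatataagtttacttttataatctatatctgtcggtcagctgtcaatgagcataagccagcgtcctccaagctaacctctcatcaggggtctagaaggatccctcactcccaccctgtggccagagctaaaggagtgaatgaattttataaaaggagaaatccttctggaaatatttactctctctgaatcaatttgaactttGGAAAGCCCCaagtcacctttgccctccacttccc
Cxcl10, chr5:92348890-92349139, minus strand: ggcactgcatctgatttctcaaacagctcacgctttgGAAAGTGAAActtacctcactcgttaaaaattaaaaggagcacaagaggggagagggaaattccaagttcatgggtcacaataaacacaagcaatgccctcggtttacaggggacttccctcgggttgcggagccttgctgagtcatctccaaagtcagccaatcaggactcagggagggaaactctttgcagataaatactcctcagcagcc

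Cxcl1 and Cxcl2, neighbours in a 146.6 kb group of CXC ligands on chromosome 5, each held 2 NF-kB matches within 100 bases of the start, and both hold the same 10 letters GGGAATTTCC. Ccl9 held 1 NF-kB match and Cxcl10 held 1 ISRE match. Among the 38 genes, 4 had an NF-kB match (10.5%; Cxcl1, Cxcl2, Ccl9 and Ccr3), against 1.41% of 32851 promoters of the same length. The ISRE was found in 3 (7.9%; Cxcl10, Cxcl14 and Ccl19), against 2.98%, and the GAS in 2 (5.3%; Ccl17 and Cxcl14), against 7.02%. A match describes letters and not binding. Of the NF-kB holders, Cxcl1, Cxcl2 and Ccl9 rose in both genotypes, and Ccr3, at 0 to 7 counts in every library, was too low to test. Of the ISRE holders, Cxcl10 and Ccl19 rose in both genotypes and Cxcl14 fell. The GAS holders were Cxcl14 and Ccl17, which did not pass in either lesion comparison. The part of these motifs in the changes was not tested.

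Cxcl9, Cxcl10 and Cxcl11 lie within 42.0 kb of chromosome 5 and are the ligands of Cxcr3, the receptor of activated T and NK cells. Cxcl10 stood at 0.675, 0.171 and 0.169 CPM in wild-type intact and 11.1, 5.39 and 4.22 CPM in wild-type lesioned libraries, and at 7.09, 6.35 and 7.49 CPM in DKK1 lesioned libraries. It rose by 4.29 (SE 0.58) and 3.80 (SE 0.56). Cxcl9 was uneven in wild-type lesioned libraries, at 6.06, 2.06 and 0.381 CPM, and rose by 4.22 (SE 1.01, adjusted p = 0.00788); that call was lost with limma-voom (adjusted p = 0.055). In DKK1 mice Cxcl9 went from 2 counts over the intact group to 114 over the lesioned group, a ratio of 50.4 (13.6 to 421).

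Cxcr3 stood at 2.39, 1.35 and 1.37 CPM in wild-type and 2.82, 3.55 and 3.80 CPM in DKK1 lesioned libraries, against at most 0.128 CPM in any intact library. It rose by 4.85 (SE 0.54, adjusted p = 7.39e-05) and 5.73 (SE 0.52, adjusted p = 6.14e-06). Xcl1, the ligand of cytotoxic lymphocytes, and its receptor Xcr1, which marks cross-presenting dendritic cells, both had 0 counts over the DKK1 intact group. In the DKK1 lesioned group they had 38 and 64, at least 11.2-fold and 18.9-fold higher. In wild-type mice Xcl1 went from 2 to 39 counts, a ratio of 18.4 (4.76 to 157), and Xcr1 rose by 3.57 (SE 0.95, adjusted p = 0.0157). The Xcr1 call was lost without wild-type intact 2 or 3 or wild-type lesioned 1 (adjusted p 0.0512 to 0.0555), and on the TPM values (0.0654).

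**Figure D3:**
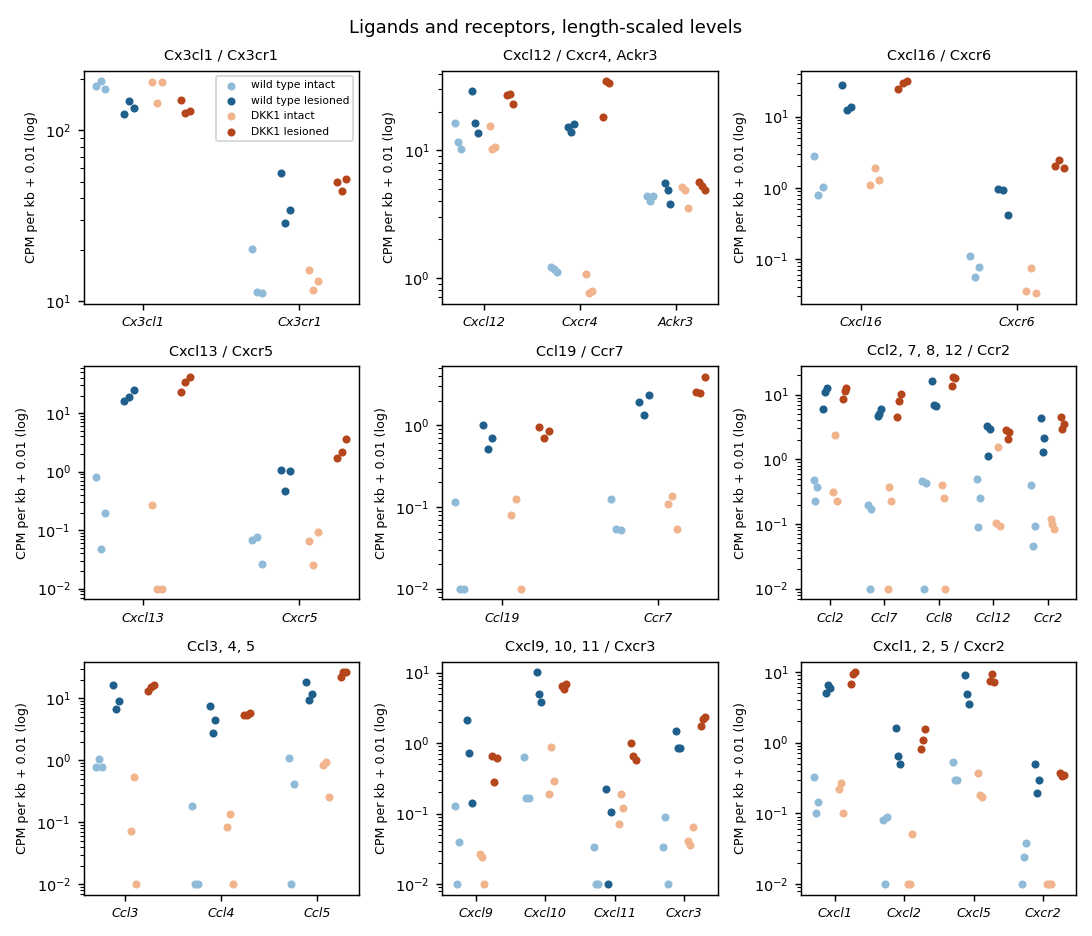
Length-scaled level (CPM per kb + 0.01, log axis) of ligands and receptors, 1 point per library, in light blue (wild-type intact), dark blue (wild-type lesioned), light orange (DKK1 intact) and dark orange (DKK1 lesioned); points at 0.01 had 0 counts. Apart from Cx3cl1, the group means are higher in lesioned than in intact tissue for each gene drawn, with overlap between the wild-type groups for Cxcl11, Cxcl12 and Ackr3.

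Cxcl13, which gathers B cells and follicular T cells through Cxcr5, rose in both genotypes. It stood at 0.938, 0.0428 and 0.211 CPM in wild-type intact and 18.4, 22.2 and 28.7 CPM in wild-type lesioned libraries. In DKK1 mice it had 6, 0 and 0 counts in intact libraries and stood at 26.0, 39.8 and 48.3 CPM in lesioned ones. It rose by 5.77 (SE 0.56, adjusted p = 4.53e-05) and 8.66 (SE 0.71, adjusted p = 4.39e-06). The DKK1 value rests on 6 intact counts, all in 1 library; it passed in all 15 alternatives but ran from 6.28 to 12.88, the latter without DKK1 intact 1, which leaves that group at 0 and makes the fitted value no measure of size. Per length it went from 0.344 ± 0.41 to 19.96 ± 4.5 CPM per kb in wild-type mice, and stood at 32.9 ± 9.7 in DKK1 lesioned tissue. Cxcr5 stood at 2.77, 1.19 and 2.699 CPM in wild-type and 4.50, 5.61 and 9.54 CPM in DKK1 lesioned libraries, against at most 0.218 CPM in any intact library. It rose by 4.13 (SE 0.57, adjusted p = 0.000285) and 5.57 (SE 0.55, adjusted p = 1.13e-05). The 6 B cell markers rose with it by medians of 5.47 and 6.85.

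Ccr7, by which dendritic cells and T cells find lymph nodes, stood at 3.81, 2.58 and 4.60 CPM in wild-type and 5.01, 4.87 and 7.72 CPM in DKK1 lesioned libraries, and at 0.0844 to 0.246 CPM in intact ones. It rose by 4.71 (SE 0.42, adjusted p = 2.76e-05) and 5.01 (SE 0.41, adjusted p = 3.42e-06). Its ligand Ccl19 had 2 and 3 counts over the intact groups and 41 and 45 over the lesioned groups, ratios of 19.3 (5.02 to 165) and 13.3 (4.26 to 66.7). The Ccl19 value is uncertain, since 68.2% of its windows are shared with gene copies. The other Ccr7 ligand genes, the Ccl21 copies, had 0 counts, but 71.6% of the Ccl21a windows and 100% of the Ccl21b windows are shared too. Their level is therefore uncertain as well.

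Cxcl16, a membrane-tethered ligand and scavenger that macrophages make, stood at 4.65, 1.33 and 1.69 CPM in wild-type intact and 47.1, 20.8 and 22.8 CPM in wild-type lesioned libraries. Those of DKK1 mice held 1.81, 3.20 and 2.18 CPM when intact and 41.3, 50.4 and 52.9 CPM when lesioned. It rose by 3.54 (SE 0.44) and 4.31 (SE 0.45). Zmynd15, on the opposite strand, overlaps 18.3% of its exon bases and rose by 3.08 (SE 0.41) and 4.34 (SE 0.43); whether counting used strand is not given in the sources used here, so reads of the overlap cannot be told apart. Cxcr6, its receptor on tissue-resident T cells, stood at 1.79, 1.74 and 0.761 CPM in wild-type and 3.80, 4.58 and 3.58 CPM in DKK1 lesioned libraries. It rose by 3.36 (SE 0.44, adjusted p = 0.000203) and 5.66 (SE 0.47, adjusted p = 3.6e-06).

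Ccr6, Ccr9 and Ccr10, receptors of mucosal and skin homing, had the smallest rises among receptors beside Cx3cr1. Ccr6 rose by 1.15 (SE 0.39, adjusted p = 0.0344) and 1.45 (SE 0.29, adjusted p = 0.00161), and its wild-type call was lost without any single wild-type library but intact 2 (adjusted p 0.0502 to 0.103). Ccr9 rose by 1.30 (SE 0.36) and 1.81 (SE 0.34), and Ccr10 by 1.24 (SE 0.30) and 1.17 (SE 0.29); Ccr10 lies inside the span of Cntnap1, a neuronal gene that fell by 0.42 and 0.51. The wild-type call of Ccr9 was lost without wild-type lesioned 1 (adjusted p = 0.0552), and those of Ccr10 (0.0603) and Cxcr1 (0.0545) without both wild-type number 1 libraries. Ccl11 (eotaxin) rose by 2.32 and 3.15 and Ccl22, a ligand of Ccr4 made by dendritic cells, by 2.05 and 2.10. Both wild-type calls were lost without wild-type lesioned 1 (adjusted p = 0.104 and 0.139) or intact 2 or 3, and the DKK1 call of Ccl22 without DKK1 intact 1 (0.0501) or 3 (0.0561). Ccl24, Ccl25, Ccl27b and Ccl28, mostly mucosal ligands, did not pass, with values from -0.68 to 1.60. Ccl25 was nearest, at -0.39 in DKK1 mice (adjusted p = 0.051), and passed there in 7 of 15 alternatives, all downward (adjusted p 0.0263 to 0.152). Ccl27b passed downward in DKK1 mice without DKK1 lesioned 1 (-1.15, adjusted p = 0.011). Ccl28 stood at 6.70, 5.32 and 2.61 CPM in DKK1 lesioned libraries, lower than the same-numbered intact library in each case, and with the replicate number as a block it fell by 0.57 (adjusted p = 0.013). The untested Ccr4 had 0 counts over the wild-type intact group, 6 over the wild-type lesioned group and 13 over the DKK1 lesioned group.

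Ackr1, the Duffy receptor that carries chemokines across venules, stood at 44.6, 47.9 and 45.9 CPM in wild-type intact and 30.0, 40.4 and 36.8 CPM in wild-type lesioned libraries. In DKK1 mice it stood at 56.1, 55.1 and 54.9 CPM and then at 36.7, 42.0 and 38.6 CPM. It fell by 0.37 (SE 0.09, adjusted p = 0.00919) and by 0.50 (SE 0.09, adjusted p = 0.000845). Its exons share 9.8% of their bases on the same strand with the neuronal gene Cadm3, which fell by 0.42 and 0.50, so the Ackr1 value is uncertain. Ackr2, which degrades inflammatory CC chemokines, stood at 4.20, 5.60 and 6.04 CPM in wild-type intact and 2.02, 3.41 and 2.89 CPM in wild-type lesioned libraries. It fell by 0.93 (SE 0.24, adjusted p = 0.0101) in wild-type and by 0.66 (SE 0.23, adjusted p = 0.0327) in DKK1 mice. The latter call was lost without DKK1 intact 3 (0.12), lesioned 1 (0.0747) or lesioned 3 (0.118). Ackr4, the scavenger of Ccl19, Ccl21 and Ccl25, was higher in every lesioned than in every intact library of its genotype and just missed the threshold (0.58 and 0.51, adjusted p = 0.0529 and 0.0688); limma-voom called it in wild-type mice (0.0498).

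When DKK1 and wild-type mice were compared within the lesioned hemisphere, 4 members were higher in DKK1 mice, the receptors Ccr6, Cxcr6 and Cxcr4 and the ligand Cxcl11. None was lower. Of the 49 tested, 4 (8.16%) passed, against 2.37% of all genes, 1.52% upward and 0.846% downward. At an unadjusted p under 0.05 there were 12. For this and the other counts at an unadjusted p, the share of all genes is not given, so an excess cannot be judged. The difference was positive for 42 of 49 members (85.7%), with a median of 0.40 on the log2 scale, against 54.5% of all genes and a median of 0.02. All 3 DKK1 libraries lay above all 3 wild-type libraries for 11 of 49 (22.4%), against 13.3% of all genes, and for no member did they all lie below (7.26% of all genes).

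Cxcr4 stood at 27.7, 25.4 and 29.2 CPM in wild-type and 32.8, 63.0 and 61.4 CPM in DKK1 lesioned libraries. The groups did not overlap, though DKK1 lesioned 1 lay nearer the wild-type libraries than to its own group. The log2 difference was 0.93 (SE 0.20, adjusted p = 0.0366). The call did not hold in limma-voom with a random effect of replicate number (0.87, adjusted p = 0.0585), on the TPM values (0.82, adjusted p = 0.0665) and without wild-type lesioned 2 (0.148) or 3 (0.135) or DKK1 lesioned 2 (0.164) or 3 (0.151).

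Cxcr6 stood at 48, 44 and 20 counts in wild-type and 97, 111 and 96 counts in DKK1 lesioned libraries, again without overlap. The log2 difference was 1.47 (SE 0.31, adjusted p = 0.0353), and without the same 4 libraries in turn the adjusted p was 0.0813, 0.113, 0.155 and 0.103. Cxcl11 had 9, 0 and 4 counts in wild-type and 41, 25 and 24 in DKK1 lesioned libraries. Its log2 difference was 2.79 (SE 0.63, adjusted p = 0.0441), and it was lost with no filter on low counts (0.0551) and without any lesioned library but wild-type 1 (adjusted p 0.0615 to 0.194). The counted transcript of Cxcl11 is recorded as non-coding in RefSeq, as are those of Ccl25, Ccl27a and Cxcl16. C57BL/6 mice are known to carry a frameshift in Cxcl11.

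Ccr6, the receptor of Ccl20 on B cells and on IL-17-producing T cells, was the clearest case. It stood at 17, 16 and 20 counts in wild-type and 108, 73 and 109 counts in DKK1 lesioned libraries, with a wide gap between the groups. The log2 difference was 2.47 (SE 0.31, adjusted p = 0.00151). It passed in every alternative run, and the transcript of the TPM table gave 1.82 (adjusted p = 0.00013). Its ligand Ccl20 had 1 count in all 12 libraries together.

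Ccl17, a Ccr4 ligand of dendritic cells, was next by p, at 0.486, 0.674 and 0.647 CPM in wild-type and 1.64, 2.10 and 1.23 CPM in DKK1 lesioned libraries. The groups did not overlap, and the difference was 1.45 (SE 0.35, adjusted p = 0.0555). Cxcr5 had the same adjusted p with a difference of 1.56 (SE 0.38). DESeq2 called both (adjusted p = 0.0161 for Ccl17 and 0.0143 for Cxcr5). Cxcr3 (0.99, adjusted p = 0.123), Ccr9 (0.92, 0.135), Ccl5 (0.92, 0.206), Ccr7 (0.68, 0.204) and Cxcl1 (0.55, 0.219) also lay higher in every DKK1 than in every wild-type lesioned library without passing. Of the main monocyte ligands, Ccl2 differed by 0.15 (SE 0.49) and Ccl12 by 0.02 (SE 0.64).

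**Figure D4:**
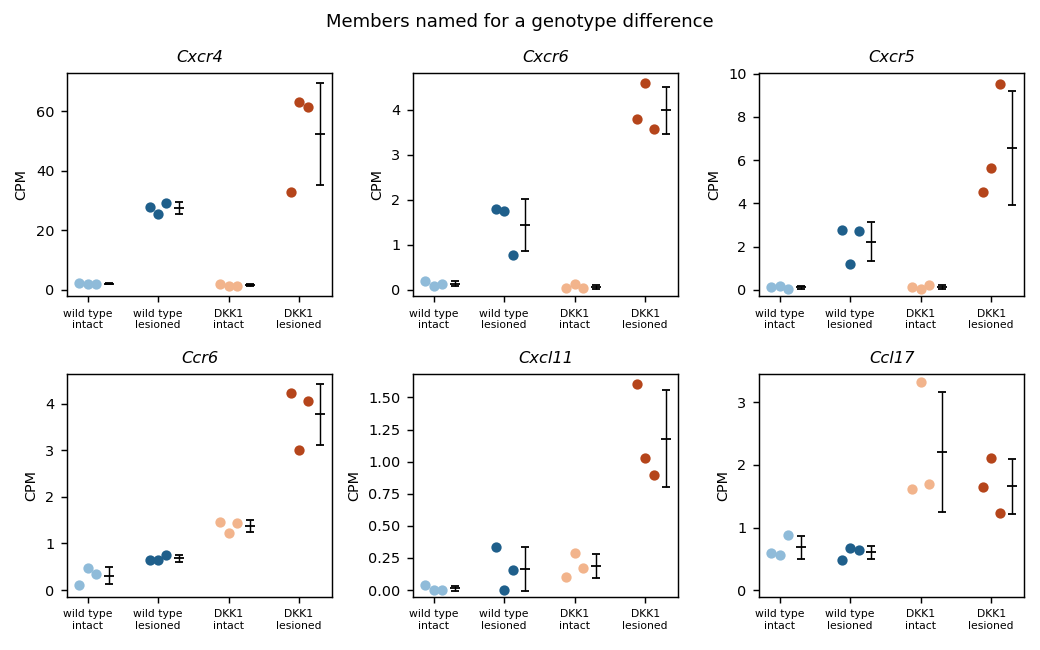
CPM of Cxcr4, Cxcr6, Cxcr5, Ccr6, Cxcl11 and Ccl17 in each of the 12 libraries, 1 point per library with the mean ± SD of each group of 3 in black. Ccr6 and Ccl17 are higher in DKK1 mice on both sides, whereas Cxcr4, Cxcr6 and Cxcr5 are higher in DKK1 mice in lesioned tissue.

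Wild-type lesioned 1 (70.9 on the main axis) lay within the range of the DKK1 lesioned libraries (62.8 to 83.8), and the number of members that passed moved with it. Without it 12 members were higher in DKK1 mice: the 4 above and Ccl8, Ccl9, Cxcl5, Cxcl12, Cxcl16, Ccr1, Cxcr3 and Cxcr5. Without both wild-type number 1 libraries 17 were higher, Ccl5, Ccl17, Ccl22, Ccr2 and Cx3cr1 with them and Cxcl16 at 1.14 (adjusted p = 0.00117). Without wild-type lesioned 2 or 3 or DKK1 lesioned 2 or 3 only Ccr6 passed. The shares of all genes that passed in these refits are not given here, so the counts of members cannot be set against a background.

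Marker lists of other cell types were compared between the genotypes in the lesion, where 2.37% of all genes passed. The 6 B cell markers summed to 32.7 to 42.3 CPM in wild-type and 72.5 to 129 CPM in DKK1 lesioned libraries, and 2 of 6 passed (median 1.33). The T and NK cell markers summed to 23.0 to 38.7 and 47.2 to 57.1 CPM, and 1 of 10 passed (median 0.75); Cd3e was 2.09 ± 0.52 against 4.17 ± 0.18 CPM. Cd4, most of this sum in wild-type intact tissue, fell in the lesion while the other tested markers rose, so the sum need not follow them. Markers of border macrophages and monocytes summed to 50.4 to 101 and 96.8 to 131 CPM, and none of 10 passed though all 10 were positive (median 0.72, 3 at an unadjusted p under 0.05). Fibroblast markers summed to 401 to 919 and 684 to 927 CPM, and none of 6 passed though all 6 were positive (median 0.54, 2 at an unadjusted p under 0.05). Microglial markers summed to 382 to 595 and 535 to 579 CPM and none of 8 passed (median 0.24, 2 at an unadjusted p under 0.05). Of 7 endothelial markers 1 passed (median 0.18), and of 4 tested neutrophil markers none did (median 0.44). None of 7 dendritic cell markers passed, and 4 were positive (median 0.18); the members Ccr7 and Xcr1 are among these markers. None of 6 choroid plexus markers passed, and 1 was positive (median -0.28). Astrocyte, neuronal and oligodendrocyte markers had medians of 0.02, 0.02 and 0.01, and none passed. The part of these cells in the receptor differences was not tested.

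In the intact hemisphere 2 members were higher in DKK1 than in wild-type mice, Ccr6 and Ccl17, and none was lower. That is 4.08% of the 49 tested, against 0.88% of all genes, 0.369% upward and 0.511% downward; 7 had an unadjusted p under 0.05. The median difference over the 49 was 0.01, with 26 positive. The groups did not overlap for 5 members above (10.2%, against 5.84% of all genes) and 2 below (4.08%, against 6.07%).

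Ccr6 had 3, 11 and 8 counts in wild-type and 30, 30 and 33 counts in DKK1 intact libraries, a log2 difference of 2.17 (SE 0.37, adjusted p = 0.0133). It was lost without DKK1 intact 1 (0.0567) or 3 (0.0589). Ccl17 stood at 0.600, 0.556 and 0.887 CPM in wild-type and 1.62, 3.32 and 1.70 CPM in DKK1 intact libraries, a difference of 1.70 (SE 0.35, adjusted p = 0.0486). That call was lost without any single intact library of either genotype (adjusted p 0.0556 to 0.218), in limma-voom (0.09), and with the replicate number as a random effect (0.0731). For both genes the DKK1 libraries lay above the wild-type libraries in both hemispheres.

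The next 3 members by p did not pass. Cxcl11 had 1, 0 and 0 counts in wild-type and 2, 7 and 4 in DKK1 intact libraries, a ratio of 14.2 (2.13 to 601), adjusted p = 0.577. Ccl3 differed by -2.01 (SE 0.75, adjusted p = 0.587) and passed in DESeq2 alone (adjusted p = 0.0456). Ackr1 differed by 0.26 (SE 0.09, adjusted p = 0.493).

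Genes on either side of Ccr6, Cxcl11 and Ccl17 were compared between genotypes as well, a choice made after their values were seen. Around Ccr6 (mm10, chromosome 17, 8242526 to 8257129), 2 of 16 tested genes with a start within 1 Mb passed in the intact (12.5%) and 5 of 16 in the lesioned hemisphere (31.2%), against 0.88% and 2.37% of all genes. They were Fndc1 (1.62 intact and 1.23 lesioned), Tagap (1.54 and 1.02), and, in the lesion, Rnaset2a (1.29), Mpc1 (-0.29) and Gm16702 (-1.32). Fndc1, at -504 kb, stood at 11.6 ± 0.95 CPM in wild-type and 35.5 ± 3.7 CPM in DKK1 intact tissue. Around Cxcl11 (chromosome 5, 92359545 to 92363296), 1 of 22 neighbours passed on each side, Stbd1, which stood 243.5 kb away at 1.98 ± 0.38 and 7.59 ± 2.2 CPM in intact tissue. Around Ccl17 (chromosome 8, 94810453 to 94812036), none of 44 passed in intact tissue and 1 in the lesion, Adgrg5 (2.81, adjusted p = 0.0354). Cx3cl1 and Ccl22, within 66.4 kb of Ccl17, differed between genotypes by -0.06 and 0.36 in intact tissue and did not pass. The part of chromosomal position in these differences was not tested.

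**Figure D5:**
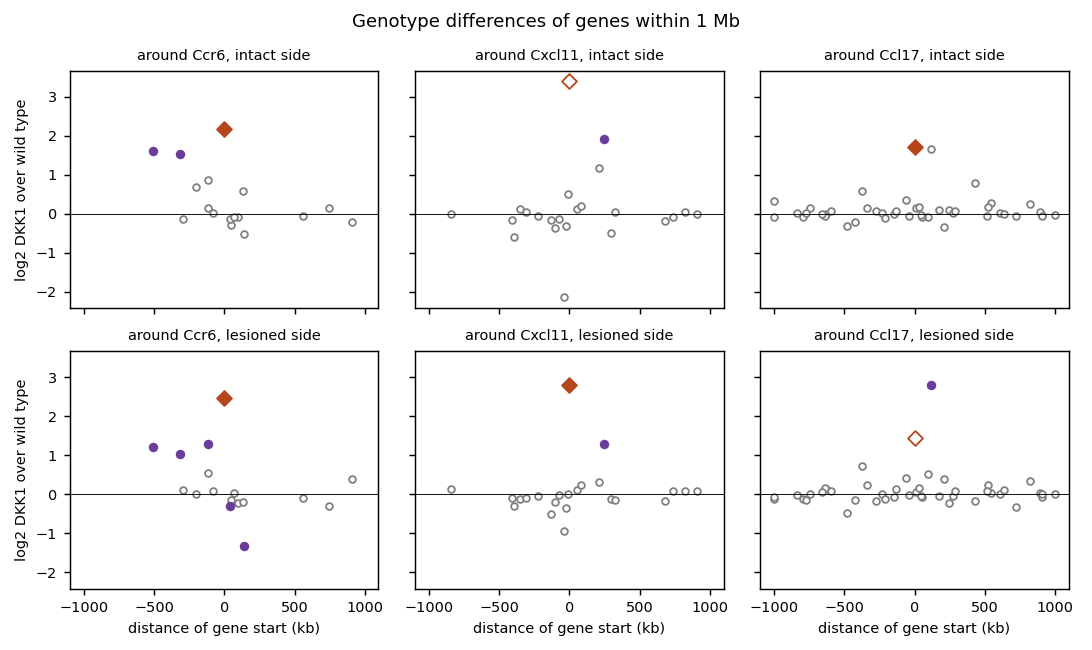
Log2 difference, DKK1 over wild type, of tested genes whose start lies within 1 Mb of Ccr6, Cxcl11 or Ccl17, against the distance in kb, in the intact (top) and lesioned (bottom) hemisphere; diamonds mark the chemokine gene, and filled symbols had an adjusted p under 0.05. Near Ccr6 the filled neighbours that are higher in DKK1 mice, Fndc1, Tagap and Rnaset2a, all lie on 1 side of it, and near Ccl17 only Adgrg5 of 44 neighbours is filled, in the lesion.

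No member was shown to differ between genotypes in its lesion change: 0 of 49 passed in edgeR, against 0.00568% of all genes, with 6 at an unadjusted p under 0.05. DESeq2 called 1 and limma-voom 0. The difference was positive for 35 of 49, with a median of 0.36, against 0.02 for all genes. The member with the smallest p was Cxcr4 (1.37, SE 0.36, adjusted p = 0.435; 0.0458 in DESeq2, 0.0157 without DKK1 lesioned 1, and 0.0792 with the replicate number as a block). It was followed by Cxcr6 (2.31, SE 0.77), Ccl3 (2.49, SE 0.84), Ccl6 (1.91, SE 0.74) and Ccl9 (1.20, SE 0.53), with adjusted p from 0.437 to 0.512. In Ccl3, Ccl6 and Ccl9 the intact level was lower and the lesioned level higher in DKK1 mice, with neither difference past the threshold.

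A list of 57 further genes held other ligands and receptors of the class, Gi proteins, kinases and arrestins of receptor desensitisation, and the PI3-kinase gamma and Rac machinery of migration. Of the 54 tested, 37 rose and 5 fell in wild-type, and 37 rose and 9 fell in DKK1 mice. Over all genes tested, the shares that passed upward were 21.2% and 27.5% in wild-type and DKK1 mice, and downward 15.9% and 22.6%. The median changes of the 54 were 0.63 and 0.89, against 3.54 and 3.80 for the chemokine family (3.58 in DKK1 mice with genes at 0 counts set to their bound). Rac2, the leukocyte Rac, rose by 3.27 and 4.03, and Dock2, which activates it downstream of chemokine receptors, by 3.20 and 3.95. Rgs1, which shuts off Gi signalling in lymphocytes, rose by 3.86 and 5.53, the atypical receptor Ccrl2 by 2.24 and 3.13, and the chemerin receptor Cmklr1 by 2.76 and 3.44. Adam17, a protease that sheds Cx3cl1 and Cxcl16 from membranes, rose by 1.0 and 1.53. Those that fell in both genotypes were Gnb1, Arrb1, Src, Ptk2b and Prkcb, by 0.17 to 0.52; they are also expressed by neurons.

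Between genotypes, 1 of the 54 passed in the lesion, against 2.37% of all genes: Coro1a, an actin regulator of leukocyte migration. It stood at 98.6 ± 5.2 CPM in wild-type and 121 ± 2.8 CPM in DKK1 lesioned tissue (difference 0.29, SE 0.06, adjusted p = 0.0333). At an unadjusted p under 0.05 there were 27, again without a share of all genes beside it. Of the 54, 44 were positive with a median of 0.26, against 54.5% positive and a median of 0.02 over all genes. In the intact hemisphere 0 of 54 passed in edgeR, and 1 had an unadjusted p under 0.05.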

How the data were processed

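RNA was sequenced from the lesioned and intact hemispheres of wild-type and DKK1 mice in 12 libraries, 3 per group, prepared with a directional kit per the labels' protocols. The authors deposited raw gene-level counts in 1 table, with genes named by transcript and symbol per the file headers, and a separate table of TPM values per transcript. The submitters' processing notes name STAR 2.7.0f, HOMER 4.11, DESeq2 and mm10; which step each served, and whether counting used strand, is not given in the sources used here. Members were the rows whose symbol matched the chemokine name pattern; those with at least 20 counts over the 12 libraries were described, and 1 of them is in the counts of members but is not reported here. The members and gene lists were chosen with earlier results of these data known.

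Counts were fitted with edgeR 4.0.16 (robust quasi-likelihood, TMM scaling, filterByExpr with a minimum count of 10) in R 4.3.3, all 4 groups in 1 model without a block; 17612 genes were tested and p-values adjusted over all of them by Benjamini-Hochberg. CPM is TMM-scaled, and CPM per kb divides by the listed transcript's length. TPM values were tested with limma 3.58.1 on log2(TPM + 0.5), which understates changes of low genes. Folds against a group at 0 counts use a floor of 3 counts over the group, and ratios on 1 to 3 counts have exact 95% intervals. The edgeR script was tested on simulated data. Libraries held 21209920 to 26911840 counts. Named with statistics were the 6 ligands and 6 receptors of smallest p in each direction among members that passed, or the 5 members of smallest p where fewer passed; all other members are described by name with fewer values. Alternatives were other scalings, no filter, DESeq2 1.42.0, limma-voom, TPM, replicate blocks and leaving out each library.

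Same-numbered libraries of a genotype deviated together: the correlations of their deviations from the group means were 0.487, 0.31 and 0.297 for the wild-type pairs and 0.276, 0.125 and 0.105 for the DKK1 pairs. Differently numbered libraries reached 0.152 (wild-type) and 0.172 (DKK1, above 2 of its 3 pairs). Every same-numbered pair was over 0.1, so blocked fits are given as alternatives where they change a call; the reported p-values use no block, and the labels do not state a pairing.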

Additional observations from a re-analysis of the deposited data

How the results depend on the processing

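The number of members called under the alternatives ran from 34 to 43 in the lesioned against intact comparison of wild-type mice (40 as reported) and from 39 to 44 in that of DKK1 mice (42 as reported), and no value that had passed changed its direction. Of the 40 and 42 calls, 29 and 38 passed in every alternative run. Between genotypes in the lesion, 4 as reported became 1 to 12 when single libraries were left out and 17 without both wild-type number 1 libraries, an alternative chosen after seeing the data; Ccr6 alone passed in every run. In the intact hemisphere, 2 as reported became 1 with limma-voom, 1 with a random-effect replicate block, 1 without both wild-type number 1 libraries, and 0 to 1 when single libraries were left out. The test of genotype and lesion together gave 0 in edgeR, 1 in DESeq2 (Cxcr4) and 0 to 1 when single libraries were left out. With a replicate block the lesion comparisons gave 42 and 43 calls, and the genotype comparisons with the number shared by groups gave 6 and 2; the blocked values that changed a call of Cxcl11, Cxcl12, Ccl28, Cxcr4 and Ccl17 stand beside those genes, Cxcr5 (adjusted p = 0.0341) and Ccl17 (0.046) passed between genotypes in the lesion with the shared number, and with the random effect Ackr4 and Ccl25 passed in both lesion comparisons and Cxcr5 (0.0462) between genotypes in the lesion. The shares of all genes that passed under these settings are not given here, so a change in the number of members called has no background beside it. Where a setting moved a call, the cause was not tested. A group of 3 libraries limits the precision throughout, and members with few counts in intact tissue have wide intervals.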
